A study of Mus musculus with 48 samples.

Results

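The genes described here are 9 components of the calcium route that runs from the T cell receptor to the nucleus, namely Stim1, Orai1, Ppp3ca, Ppp3cb, Ppp3cc, Camk4, Nfatc1, Nfatc2 and Nfatc3. They were taken by symbol from the 53345 genes of the expected count and FPKM matrices, and all 9 were found and passed the filter on low counts in every fit. RNA-seq had been performed on splenic regulatory T cells (Tregs, the CD25-bound fraction of a bead kit) and conventional CD4 T cells (Tcons, the CD25-negative flow-through of the same kit) of C57BL/6 female mice aged 8 to 12 weeks. Each mouse had received 2 intraperitoneal doses of 500 µg of an isotype control or of an MHC II blocking antibody, then a single subcutaneous dose of PBS or of 25 µg of human WT IL-2, the H16R mutein or the 3x mutein, all as Fc fusions, with spleens taken on day 4. Both muteins are attenuated forms of IL-2 that carry amino acid substitutions, H16R at 1 residue and 3x at more than 1. The 2 antibodies and 4 injections gave 8 groups, with 4 Treg libraries each (32 in all) and 2 Tcon libraries each (16 in all) from 2 of the same mice.

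When the T cell receptor meets peptide on MHC II, calcium leaves the endoplasmic reticulum, the sensor STIM1 in that membrane opens the channel ORAI1 in the plasma membrane, and calcium from outside enters the cell. Calmodulin bound to calcium then activates the phosphatase calcineurin, whose catalytic A subunit is encoded by Ppp3ca, Ppp3cb or Ppp3cc, and the kinase CaMKIV, encoded by Camk4. Calcineurin removes phosphates from the NFAT transcription factors, encoded by Nfatc1, Nfatc2 and Nfatc3, which then move into the nucleus and, in Tregs, can act together with FOXP3. The IL-2 receptor signals instead through JAK kinases and STAT5.

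The Treg libraries held 18.28 to 51.24 M expected counts (median 40.7) and the Tcon libraries 31.31 to 51.95 M (median 38.24), and no member had fewer than 493 expected counts in any library. Isotype PBS Tregs held 34.58, 20.18, 24.53 and 18.28 M, so replicate 4 of that group was the shallowest Treg library. Foxp3, the lineage factor of Tregs, was at 687 to 1250 CPM in Treg libraries and 46.8 to 183 CPM in Tcon libraries. The summed CPM of 5 Treg markers was not level across Treg groups. Its group medians were 2990 with PBS, 4210 after WT IL-2, 4260 after H16R and 4300 after 3x under the isotype, and 2900, 3180, 3990 and 4210 in that order under MHC II blockade. A pair of Treg libraries stood apart in 8 B cell markers, isotype PBS replicate 1 with a sum of 685 CPM and MHC II block WT IL-2 replicate 1 with 604 CPM, against a median of 57.7 over all Treg libraries. The latter also had the highest sum of 8 myeloid markers (654 CPM, median 39.2). For the comparisons that use them, the number of members called without both is also given. The share of all genes called in those fits is not set beside that number, which shows only the calls kept, lost or gained. Isotype WT IL-2 held replicates 3a and 3b, since 2 of its Treg libraries carry the same mouse number, so both may come from 1 mouse. They were counted as separate samples, and fits without either are among those that left out 1 library. In bulk RNA, fewer cells of a type and less RNA per cell cannot be told apart.

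Levels between genes were compared per transcript length, in FPKM. In Tregs, Nfatc1 had the highest median (84.9 FPKM, range 70.7 to 116 over 32 libraries), followed by Nfatc3 (68.6, 52.1 to 76.8), and this order held in 32 of 32 libraries. Ppp3cc (33.5 FPKM), Ppp3cb (33.4) and Stim1 (32) were not separated, since Ppp3cc exceeded Ppp3cb in 17 of 32 libraries and Ppp3cb exceeded Stim1 in 21. Stim1 exceeded Orai1 (24.8 FPKM) in all 32, whereas Orai1 exceeded Nfatc2 (23.6 FPKM) in 13. Ppp3ca (19.8 FPKM) and Camk4 (15.6 FPKM) were lowest. In Tcons, Nfatc3 (69.4 FPKM) and Nfatc1 (64.7 FPKM) were not separated (Nfatc3 higher in 9 of 16 libraries), and Camk4 was again lowest (10.9 FPKM, below Orai1 at 17.7 FPKM in all 16). Values below are CPM, which compare 1 gene between libraries. On GRCm38, Orai1 lies at chr5:123015074-123030456, Stim1 at chr7:102267806-102437319, Ppp3ca at chr3:136670124-136937727, Ppp3cb at chr14:20499364-20546573, Ppp3cc at chr14:70217865-70289471 and Camk4 at chr18:32934931-33191228. Nfatc1 lies at chr18:80606205-80713071, Nfatc2 at chr2:168476410-168601657 and Nfatc3 at chr8:106058840-106130537, so only the beta and gamma calcineurin A genes, and Camk4 and Nfatc1, share a chromosome.

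**Figure D1:**
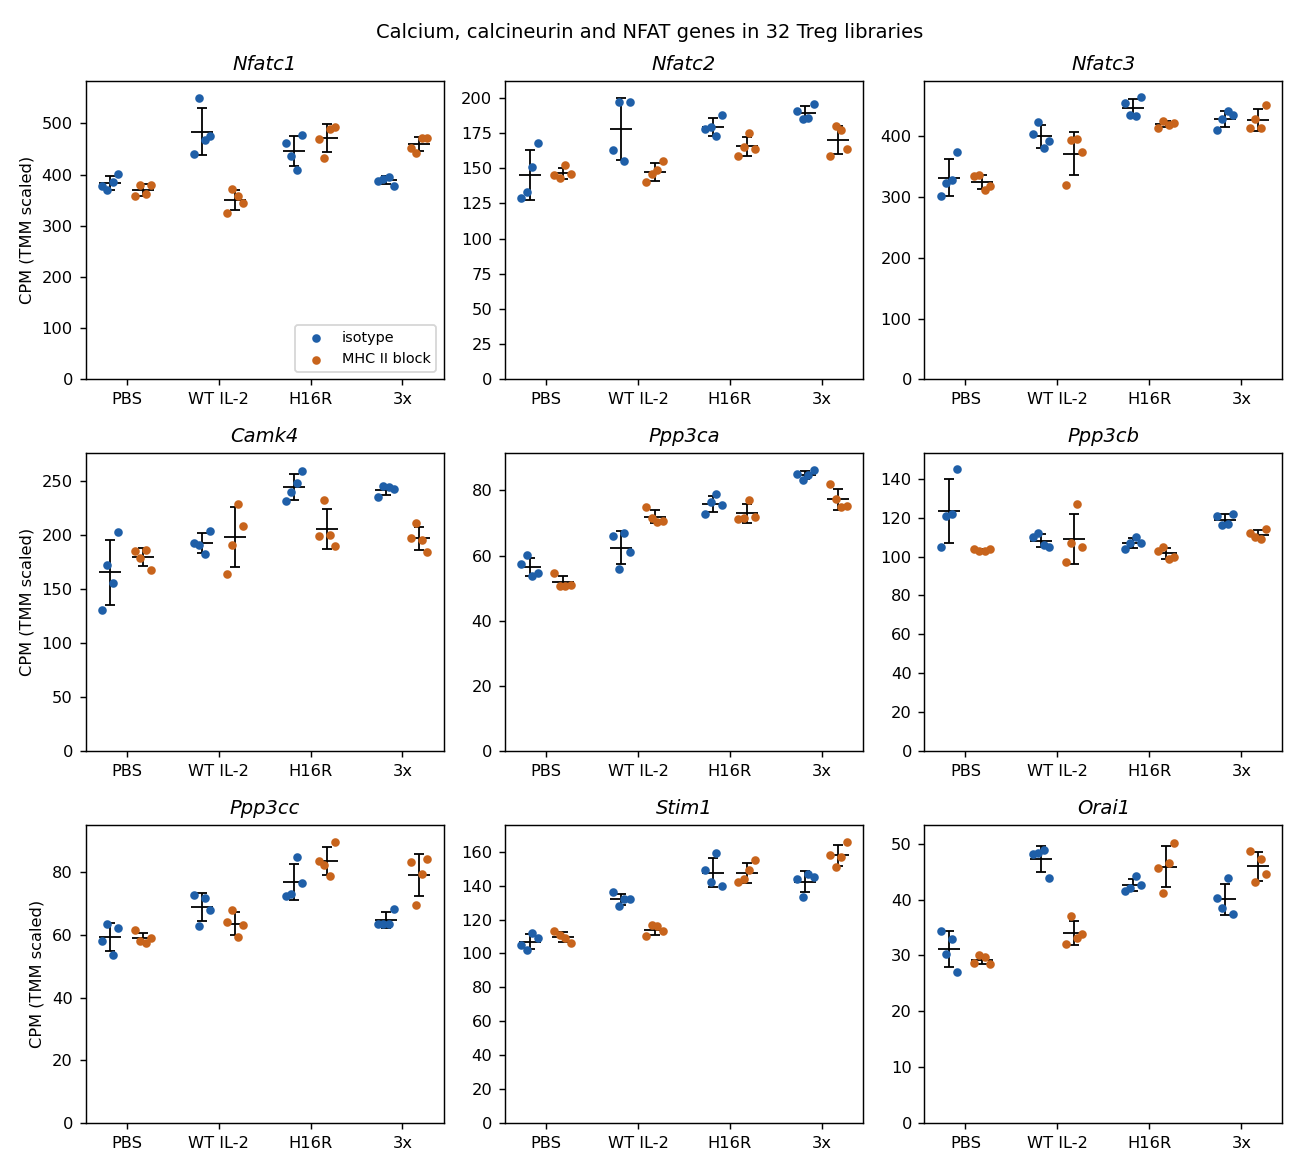
CPM of each of the 9 genes in the 32 Treg libraries, by antibody arm and injection, with 1 point per library, a line at the group mean and bars of 1 SD in each direction. Orai1 and Stim1 sat above their PBS libraries with every molecule under the isotype, and under MHC II blockade the Stim1 libraries with WT IL-2 (110 to 117 CPM) overlapped those with PBS (106 to 113 CPM).

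The first question was whether each IL-2 molecule moved these genes relative to PBS in mice given the isotype. Both WT IL-2 and H16R raised 8 members and lowered 1, Ppp3cb. The 3x mutein raised 7, and Nfatc1 and Ppp3cb did not pass the test with it. Most tested genes also passed, so these counts say little by themselves: 52.2% of 12392 genes were called for WT IL-2 (26% higher, 26.2% lower), 64.2% for H16R (31.4% higher, 32.8% lower) and 63.6% for 3x (31.3% higher, 32.3% lower), at an adjusted p under 0.1. The median log2 fold change of the 9 members was 0.27, 0.43 and 0.38 against -0.01 over all tested genes with each molecule. Without both libraries high in B cell markers, 8, 9 and 7 members were called, with Camk4 lost for WT IL-2, and Ppp3cc lost and Ppp3cb gained, lower, for 3x. No member changed by a log2 fold change of 1 or more in any comparison described here. The summed CPM of 5 CD4 T cell markers also moved with these comparisons, from 1430 to 1750 in isotype PBS Tregs to 2170 to 2410 with WT IL-2, 2350 to 2410 with H16R and 2040 to 2180 with 3x. The sum of 4 plasma cell markers moved the other way, from 1660 to 1990 CPM with PBS to 770 to 920, 295 to 558 and 178 to 270 CPM. Sums of B cell markers (106 to 685 CPM with PBS, then 44 to 86.6, 26.8 to 35.3 and 24.6 to 33.2), NK cell markers (31.7 to 48.8, then 16.2 to 23.7, 10.6 to 15.2 and 13.3 to 21.8) and dendritic cell markers (15 to 28.1, then 7.33 to 10.4, 3.79 to 5.49 and 3.88 to 6.33) were also lower with each molecule, without overlap. Their part in the results was not tested.

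Orai1, the pore of the store-operated channel, showed the largest rise of the 9 with WT IL-2. Its CPM in isotype Tregs was 34.3, 30.2, 33 and 27 with PBS and 48.1, 48.3, 48.8 and 43.8 with WT IL-2. H16R gave 41.6, 42, 44.2 and 42.6 CPM and 3x gave 40.3, 38.5, 43.9 and 37.4 CPM. Every library of the 3 molecules exceeded every PBS library, and the 3x libraries reached the WT IL-2 range only at 43.9. Log2 fold changes were 0.59 ± 0.06 (SE) with WT IL-2 (adjusted p = 2.9e-08), 0.45 ± 0.07 with H16R (adjusted p = 1.23e-06) and 0.37 with 3x (adjusted p = 2.36e-05). Stim1, the calcium sensor that opens the channel, was at 105, 102, 112 and 109 CPM with PBS and 136, 128, 132 and 132 CPM with WT IL-2. It was at 149, 142, 159 and 140 CPM with H16R and 144, 133, 147 and 145 CPM with 3x. Again no library of a molecule overlapped PBS, but here the order of the molecules differed from that of Orai1, with both muteins above WT IL-2. Stim1 rose by 0.30 ± 0.04 (adjusted p = 8.91e-07), 0.47 (adjusted p = 1.25e-10) and 0.42 (adjusted p = 1e-09) on the log2 scale.

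Because Orai1 and Stim1 rose together while Ppp3cb did not, the 250 bases before the annotated start of these 3 genes are shown (RefSeq, GRCm38.p6, gene strand, 5′ to 3′). Capitals mark matches, on either strand, to GGAAA, the core that NFAT factors bind (TTTCC where it lies on the other strand), or to TTCNNNGAA, the paired half-sites that STAT dimers bind. The Orai1 stretch is chr5:123014824-123015073 (plus strand), the Stim1 stretch chr7:102267569-102267818 (plus strand) and the Ppp3cb stretch chr14:20546574-20546823 (minus strand).
Orai1: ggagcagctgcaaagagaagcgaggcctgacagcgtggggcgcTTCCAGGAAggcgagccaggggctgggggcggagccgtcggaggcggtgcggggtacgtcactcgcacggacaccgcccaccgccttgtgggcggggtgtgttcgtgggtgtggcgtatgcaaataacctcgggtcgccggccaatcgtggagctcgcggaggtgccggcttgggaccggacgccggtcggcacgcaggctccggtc
Stim1: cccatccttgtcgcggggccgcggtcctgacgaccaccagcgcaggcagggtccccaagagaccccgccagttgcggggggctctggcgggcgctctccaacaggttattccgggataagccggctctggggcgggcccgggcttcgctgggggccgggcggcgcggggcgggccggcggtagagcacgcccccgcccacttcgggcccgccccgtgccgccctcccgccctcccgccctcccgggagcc
Ppp3cb: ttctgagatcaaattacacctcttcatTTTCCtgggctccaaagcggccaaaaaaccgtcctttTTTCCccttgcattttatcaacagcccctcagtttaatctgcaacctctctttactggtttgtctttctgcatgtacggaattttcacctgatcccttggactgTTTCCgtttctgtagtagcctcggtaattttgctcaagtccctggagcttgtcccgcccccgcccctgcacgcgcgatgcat
The Orai1 stretch held 1 match to TTCNNNGAA, 207 to 199 bases before the start, and none to GGAAA. The Stim1 stretch, 78.4% G and C, held no match to either, and the Ppp3cb stretch, 48.4% G and C, held 3 matches to GGAAA, all on the other strand. GGAAA occurred in 55.6% of the 32851 stretches of this length in the RefSeq table and TTCNNNGAA in 7.0%. Of the other members, Nfatc2 had 3 matches to GGAAA before its upstream start and 1 before a second start, and Nfatc3 had 1 and 0. No stretch of Nfatc2 or Nfatc3 matched TTCNNNGAA. Ppp3ca, Ppp3cc, Nfatc1 and Camk4 were not searched. Such matches are letters in a window and were not measured as bound sites.

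The 3 calcineurin A genes did not move as a unit. Ppp3ca, the alpha isoform, was at 57.5, 60.1, 53.7 and 54.8 CPM with PBS and 66, 55.8, 66.9 and 61 CPM with WT IL-2, which overlapped. With H16R it was at 72.8, 76.3, 78.8 and 75.4 CPM, and with 3x at 85.1, 83.1, 84.8 and 86.2 CPM. The groups with the muteins were each apart from all others, in the order PBS and WT IL-2, then H16R, then 3x. Log2 fold changes over PBS were 0.14 (adjusted p = 0.0207), 0.43 (adjusted p = 2.62e-08) and 0.59 ± 0.05 (adjusted p = 7.79e-11). Ppp3cb, the beta isoform, was at 105, 121, 122 and 145 CPM with PBS, the widest spread of any PBS group of this gene. It was at 110, 112, 106 and 105 CPM with WT IL-2 and 104, 107, 110 and 107 CPM with H16R. Its log2 fold change was -0.19 with each (adjusted p = 0.0121 and 0.00692), and the WT IL-2 value was -0.10 and no longer passed without isotype PBS replicate 4, the library at 145 CPM. Without it the H16R value was -0.11 (adjusted p = 0.0772). With 3x Ppp3cb was at 121, 116, 117 and 122 CPM, inside the PBS range (log2 fold change -0.04, adjusted p = 0.597). Without both libraries high in B cell markers that value was -0.10 and passed.

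Ppp3cc, the gamma isoform, was at 57.9, 63.6, 53.7 and 62.1 CPM with PBS and 72.7, 62.9, 71.6 and 67.9 CPM with WT IL-2. It was at 72.5, 73, 84.9 and 76.6 CPM with H16R and 63.5, 63.5, 63.3 and 68.4 CPM with 3x. Only the H16R libraries were clear of every PBS library. The log2 fold changes were 0.21 ± 0.06 with WT IL-2 (adjusted p = 0.00582), 0.38 with H16R (adjusted p = 7.27e-06) and 0.14 with 3x (adjusted p = 0.0601). The 3x call for Ppp3cc was lost without isotype PBS replicate 1 (0.13), isotype PBS replicate 3 (0.10) or isotype 3x replicate 4 (0.11). As a share of the summed FPKM of the 3 calcineurin A genes, Ppp3ca made up 18.4% with PBS, 20.5% after WT IL-2, 23% after H16R and 25.4% after 3x, while Ppp3cb went from 46.1% to 39.4%, 36.1% and 39.9%. Ppp3r1, which encodes the regulatory B subunit that all 3 share, did not pass the test with any molecule (log2 fold changes -0.08, -0.03 and 0.08, adjusted p = 0.313, 0.68 and 0.227).

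Camk4, the calcium and calmodulin dependent kinase that acts on CREB family factors, was at 131, 172, 156 and 203 CPM with PBS and 193, 191, 182 and 204 CPM with WT IL-2. It was at 231, 240, 248 and 259 CPM with H16R and 235, 245, 244 and 243 CPM with 3x. PBS libraries were widely spread and reached into the WT IL-2 range, whereas all mutein libraries were above both. Camk4 rose by 0.57 ± 0.09 with H16R (adjusted p = 3.31e-06) and 0.56 with 3x (adjusted p = 4.59e-06) on the log2 scale. With WT IL-2 the log2 fold change was 0.22 (adjusted p = 0.0425), and the Camk4 call was lost without isotype PBS replicate 1, the library at 131 CPM that is also high in B cell markers (0.13), or isotype WT IL-2 replicate 3b (0.19).

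Nfatc1, the family member with the inducible short isoform, gave a pattern of its own among the NFAT genes. It was at 378, 370, 385 and 401 CPM with PBS and 441, 549, 468 and 476 CPM with WT IL-2. It was at 461, 437, 409 and 477 CPM with H16R and 388, 392, 396 and 378 CPM with 3x. The 3x libraries lay inside the PBS range and below every library of WT IL-2 and H16R. The log2 fold changes were 0.33 ± 0.05 with WT IL-2 (adjusted p = 9.76e-06), 0.22 with H16R (adjusted p = 0.000684) and 0.03 with 3x (adjusted p = 0.668, interval of 2 SE in each direction -0.08 to 0.13). Gene counts do not separate the isoforms of Nfatc1.

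Nfatc2, which is mostly constitutive in T cells, was at 129, 133, 151 and 168 CPM with PBS and 163, 197, 155 and 197 CPM with WT IL-2, which overlapped. It was at 178, 179, 173 and 188 CPM with H16R and 191, 185, 186 and 196 CPM with 3x, all above PBS. Nfatc2 rose by 0.30 ± 0.07, 0.31 and 0.40 on the log2 scale (adjusted p = 0.00079, 0.000272 and 1.46e-05). Nfatc3, another of the NFAT genes regulated by calcineurin, was at 302, 323, 328 and 375 CPM with PBS and 404, 424, 380 and 392 CPM with WT IL-2. It was at 455, 435, 433 and 464 CPM with H16R and 411, 429, 441 and 435 CPM with 3x, so no library of a molecule reached down to PBS. Nfatc3 rose by 0.27 ± 0.05, 0.43 and 0.38 (adjusted p = 0.000145, 7.01e-08 and 6.09e-07). Of the summed FPKM of the 3 NFAT genes, Nfatc1 made up 51.4% ± 1.7 (SD, n = 4) with PBS, 52.2% ± 1.6 after WT IL-2, 48.2% after H16R and 45.3% ± 0.83 after 3x.

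**Figure D2:**
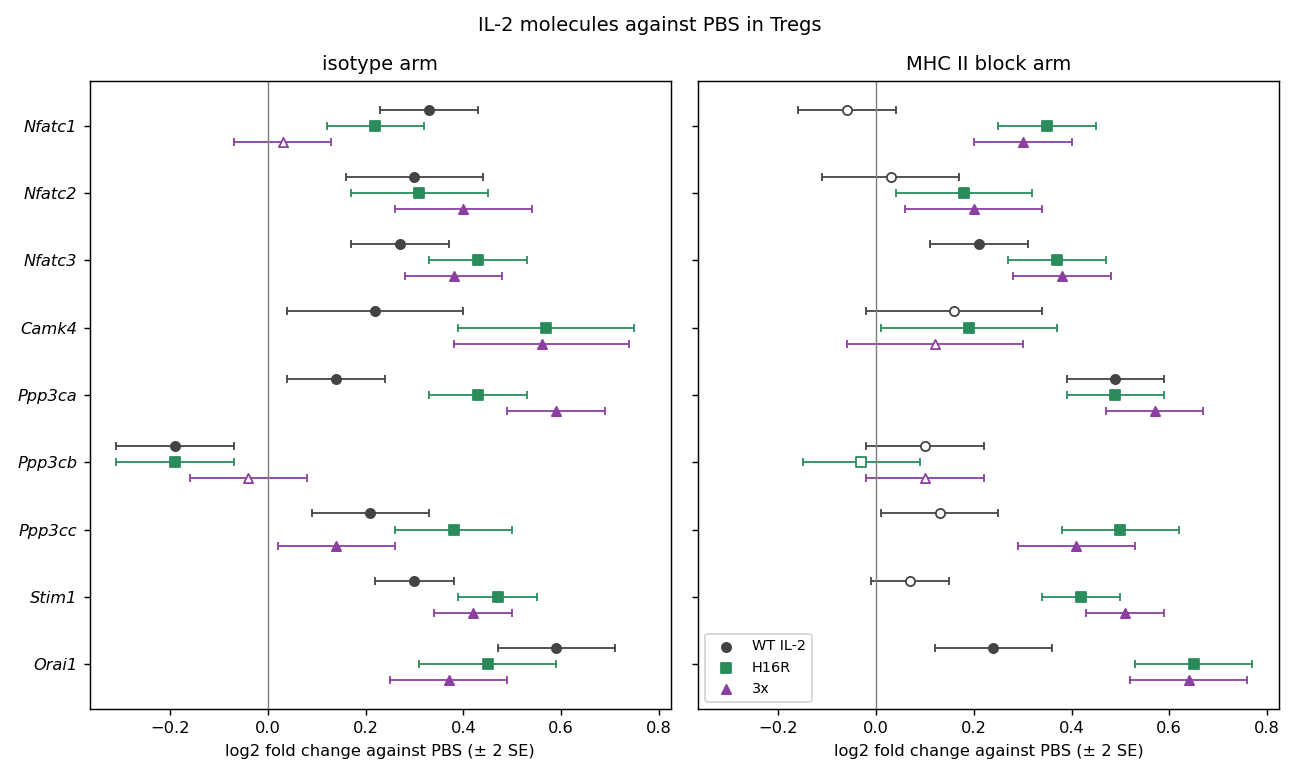
Log2 fold change of each gene against PBS in Tregs for WT IL-2, H16R and 3x, in isotype and MHC II block mice, with bars of 2 SE in each direction. Filled markers passed an adjusted p of 0.1 and open markers did not: under the isotype Nfatc1 with 3x (0.03) and Ppp3cb with 3x (-0.04) were open, and under MHC II blockade with WT IL-2 only Nfatc3, Ppp3ca and Orai1 were filled.

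The molecules differed by named substitutions at the same dose and day, and 4 pairs were compared, each mutein against WT IL-2 in each antibody arm, with p-values adjusted over all tested genes within a pair. Under the isotype, H16R was above WT IL-2 in 5 members (18.6% of all tested genes were called in this pair, 8.87% higher and 9.76% lower). That share was 7.32% without isotype H16R replicate 3 and 12.2% without isotype WT IL-2 replicate 2. These were Ppp3ca by 0.29 (adjusted p = 0.000361), Stim1 by 0.17 (adjusted p = 0.00612), Camk4 by 0.35 (adjusted p = 0.00963), Nfatc3 by 0.16 (adjusted p = 0.0383) and Ppp3cc by 0.16 (adjusted p = 0.0729). Nfatc3 no longer passed without isotype WT IL-2 replicate 3a (0.14). Ppp3cc no longer passed without isotype H16R replicate 3 (0.11) or 4 (0.16), or without isotype WT IL-2 replicate 2 (0.13) or 3b (0.16). For Nfatc1 the difference was -0.11 (interval -0.22 to -0.01, adjusted p = 0.171) and for Orai1 -0.14 (interval -0.27 to -0.02, adjusted p = 0.13). Nfatc1 passed, lower with H16R, without isotype H16R replicate 4 or isotype WT IL-2 replicate 1 (-0.15 in both), and Orai1 without isotype WT IL-2 replicate 3b (-0.18). Ppp3cb was -0.01 (interval -0.12 to 0.11) and Nfatc2 0.02 (interval -0.12 to 0.15).

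The 3x mutein differed from WT IL-2 in 6 members under the isotype, 4 higher and 2 lower (34.7% of all tested genes called, 16.9% higher and 17.7% lower). Ppp3ca was higher with 3x by 0.45 (adjusted p = 1.79e-07), Camk4 by 0.34 (adjusted p = 0.0045), Stim1 by 0.12 (adjusted p = 0.0192) and Ppp3cb by 0.15 (adjusted p = 0.0629). Nfatc1 was lower by a log2 difference of -0.31 (adjusted p = 9.82e-05) and Orai1 by -0.23 (adjusted p = 0.00763). Nfatc1 and Orai1 were thus the members on which 3x lay below WT IL-2, on opposite sides of it from Ppp3ca, Camk4 and Stim1. The Ppp3cb call was lost without isotype 3x replicate 1 or 4 or isotype WT IL-2 replicate 3a or 3b (0.14 in each). Nfatc3 (0.11, adjusted p = 0.109) passed without isotype 3x replicate 1 (0.13) or isotype WT IL-2 replicate 2 (0.15). Marker sums also differed between WT IL-2, H16R and 3x under the isotype. In that order, plasma cell sums were 770 to 920, 295 to 558 and 178 to 270 CPM. B cell sums were 44 to 86.6, 26.8 to 35.3 and 24.6 to 33.2 CPM, and dendritic cell sums 7.33 to 10.4, 3.79 to 5.49 and 3.88 to 6.33 CPM. Treg sums overlapped (3920 to 4450, 4220 to 4320 and 4120 to 4330 CPM). The part of these sums in the results was not tested.

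The next question was what MHC II blockade, which withholds the ligand of the T cell receptor on CD4 T cells, did to these genes at rest. In Tregs of PBS mice 2 members were lower under blockade, and 14.1% of all tested genes were called (6% higher, 8.13% lower). The share was 9.42% and 8.94% without MHC II block PBS replicates 1 and 2. Ppp3cb was at 104, 103, 103 and 104 CPM under blockade against 105 to 145 CPM under the isotype, with no overlap (log2 fold change -0.25, adjusted p = 0.00804). The Ppp3cb call was lost when only the compared groups were fitted (-0.24, adjusted p = 0.129). Ppp3ca was at 54.6, 50.6, 50.8 and 51.1 CPM against 53.7 to 60.1 CPM, overlapping at 1 library (-0.13, adjusted p = 0.0955), and this call was lost without isotype PBS replicate 1 (-0.11) or 2 (-0.10) or any of the MHC II block PBS replicates 2, 3 and 4 (-0.12 in each). Without both libraries high in B cell markers only Ppp3cb was called (-0.31). The other 7 members had intervals within -0.23 to 0.30 on the log2 scale. Among them Orai1 was at 28.6, 30, 29.7 and 28.5 CPM, Stim1 at 113, 111, 109 and 106 CPM and Nfatc1 at 358, 379, 361 and 379 CPM. Camk4 was at 185, 179, 186 and 168 CPM (0.12, adjusted p = 0.429) and passed, higher under blockade, without isotype PBS replicate 4 (0.24).

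In mice given WT IL-2, blockade lowered 4 members and raised 1, with 33.6% of all tested genes called (18.2% higher, 15.3% lower). Nfatc1 was at 325, 372, 358 and 345 CPM under blockade against 441 to 549 CPM under the isotype, far apart (log2 fold change -0.45 ± 0.05, adjusted p = 5.17e-07). Orai1 was at 32.1, 37.1, 33.2 and 33.9 CPM against 43.8 to 48.8 CPM (-0.45, adjusted p = 6.59e-06). Stim1 was at 110, 117, 116 and 113 CPM against 128 to 136 CPM (-0.19, adjusted p = 0.000693), also without overlap. Nfatc2 was at 140, 146, 149 and 155 CPM against 155 to 197 CPM, and fell by 0.25 (adjusted p = 0.0057). Ppp3ca went the other way, at 74.8, 71.6, 70.4 and 70.7 CPM under blockade against 55.8 to 66.9 CPM (0.22, adjusted p = 0.00101). Nfatc3 (320, 394, 396 and 375 CPM) and Camk4 (164, 191, 229 and 208 CPM) were spread over the isotype ranges and did not pass. Foxp3 and the Treg marker sum moved with these results, Foxp3 by -0.33 (adjusted p = 7.97e-05) and the sum from 3920 to 4450 CPM under the isotype to 2410 to 3390 CPM under blockade. The plasma cell marker sum was 770 to 920 CPM and 1710 to 3410 CPM. In the same order, CD4 T cell sums were 2170 to 2410 and 1580 to 2070 CPM, and NK cell sums 16.2 to 23.7 and 42.1 to 59.7 CPM. Dendritic cell sums were 7.33 to 10.4 and 15.1 to 40.1 CPM, and myeloid sums 22.8 to 38.9 and 41.7 to 654 CPM. The part of the cell makeup in the results was not tested. The same 5 members were called without MHC II block WT IL-2 replicate 1, alone or with isotype PBS replicate 1. Ppp3cc (-0.10, adjusted p = 0.261) passed, lower under blockade, without isotype WT IL-2 replicate 2 (-0.16).

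Blockade was then examined in mice given a mutein, and whether its effect differed between the molecules was not tested directly. With H16R 1 member was called, Camk4, at 199, 232, 200 and 190 CPM under blockade against 231 to 259 CPM (-0.26, adjusted p = 0.0341), where 30.7% of all tested genes were called (15.4% higher, 15.2% lower). That Camk4 call was lost without isotype H16R replicate 4 (-0.23) or MHC II block H16R replicate 4 (-0.22), and without MHC II block H16R replicate 3 the share of all genes called was 20.2%. Plasma cell sums moved from 295 to 558 CPM under the isotype to 687 to 1410 CPM, and myeloid sums from 19 to 24.8 CPM to 45.1 to 87.1 CPM. In the same order, B cell sums were 26.8 to 35.3 and 43.1 to 77.7 CPM, and NK cell sums 10.6 to 15.2 and 24.3 to 39 CPM. Dendritic cell sums were 3.79 to 5.49 and 8.98 to 14.6 CPM, whereas Treg sums fell, from 4220 to 4320 CPM to 3740 to 4110 CPM. With 3x 7 members were called, 4 higher and 3 lower, against 54.1% of all tested genes (27.2% higher, 26.9% lower). Nfatc1 was at 452, 443, 471 and 471 CPM under blockade against 378 to 396 CPM (0.22, adjusted p = 0.00126). Ppp3cc was at 83.3, 69.4, 79.3 and 84.2 CPM against 63.3 to 68.4 CPM (0.27, adjusted p = 0.000714). Stim1 (158, 151, 157 and 166 CPM) was higher by 0.13 (adjusted p = 0.0109). None of these 3 genes overlapped between the arms. Orai1 (48.7, 43.2, 47.3 and 44.5 CPM) was higher by 0.17 (adjusted p = 0.024). Camk4 (197, 211, 195 and 184 CPM against 235 to 245) fell by 0.32 (adjusted p = 0.004), Nfatc2 by 0.18 (adjusted p = 0.0288) and Ppp3ca (81.9, 77.3, 75 and 75.2 CPM against 83.1 to 86.2) by 0.16 (adjusted p = 0.00921). With 3x the plasma cell marker sum moved from 178 to 270 CPM under the isotype to 725 to 1550 CPM under blockade, and the myeloid sum from 23.3 to 28.5 CPM to 58.6 to 77.8 CPM. B cell sums were 24.6 to 33.2 and 50.4 to 118 CPM with 3x, NK cell sums 13.3 to 21.8 and 27.5 to 34 CPM, and dendritic cell sums 3.88 to 6.33 and 9.62 to 14.4 CPM. Treg sums with 3x overlapped (4120 to 4330 and 3980 to 4550 CPM). The part of these sums in the results with either mutein was not tested.

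**Figure D3:**
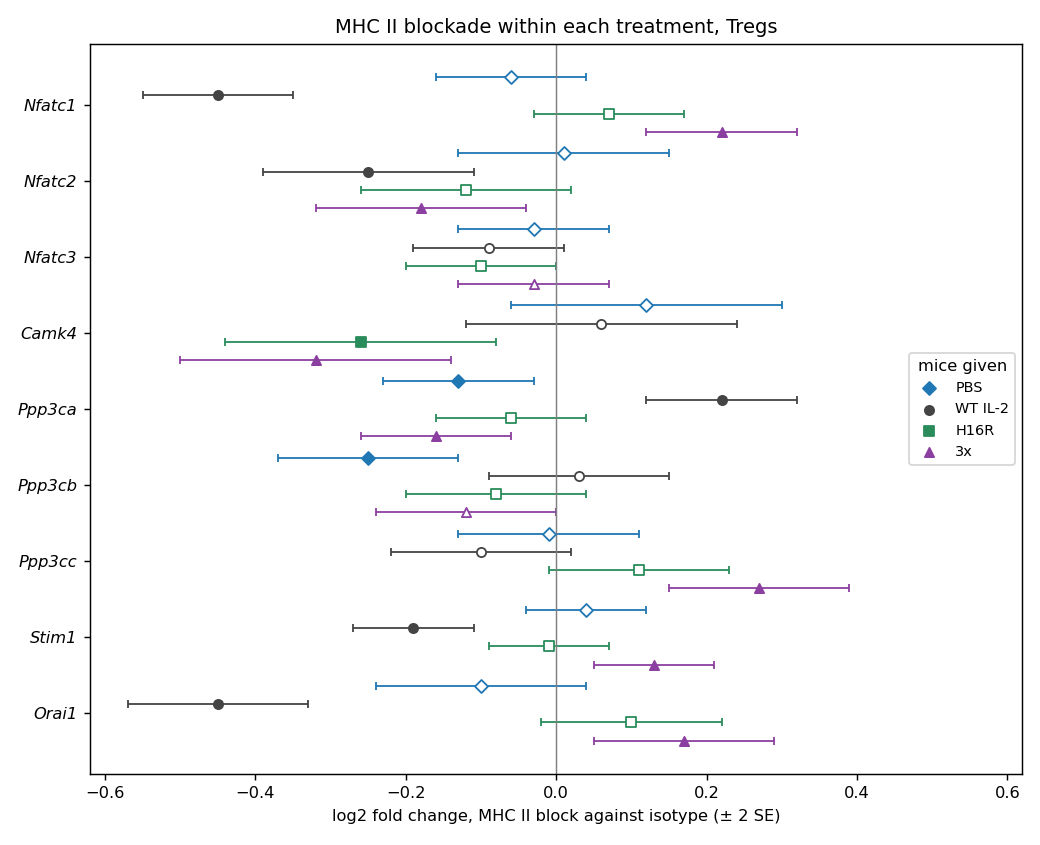
Log2 fold change of each gene under MHC II blockade against the isotype in Tregs, within each injection, with bars of 2 SE in each direction. With WT IL-2, Nfatc1 and Orai1 lay at -0.45 and Ppp3ca at 0.22, whereas with 3x Nfatc1 lay at 0.22 and Camk4 at -0.32, and filled markers passed an adjusted p of 0.1.

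Within MHC II block mice, each molecule was again set against PBS, and the PBS libraries of this arm are shared by the 3 comparisons. WT IL-2 raised 3 members (35.6% of all tested genes called, 21.9% higher and 13.7% lower): Ppp3ca by 0.49 (adjusted p = 3.18e-08), Orai1 by 0.24 (adjusted p = 0.00626) and Nfatc3 by 0.21 (adjusted p = 0.00376). Stim1 was at 0.07 (interval -0.01 to 0.15, adjusted p = 0.19), Nfatc1 at -0.06 (interval -0.16 to 0.05) and Nfatc2 at 0.03 (interval -0.11 to 0.16). Leaving out both libraries high in B cell markers raised the count to 5, with Camk4 at 0.23 and Ppp3cb at 0.14, and leaving out MHC II block WT IL-2 replicate 1 alone gave the same values. Without MHC II block WT IL-2 replicate 3, Ppp3cc passed at 0.17. From PBS to WT IL-2 in this arm, myeloid sums moved from 24.4 to 39.8 CPM to 41.7 to 654 CPM and sums of 4 NK cell markers from 28.6 to 38.6 CPM to 42.1 to 59.7 CPM, without overlap, and median plasma cell sums were 1690 and 2720 CPM. Their part in the results was not tested.

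The muteins were set against PBS in the same way. H16R raised 8 (66.5% of all tested genes called, 32.7% higher and 33.8% lower) and 3x raised 7 (73% called, 34.7% higher and 38.3% lower). Orai1 was at 45.6, 41.2, 46.5 and 50.2 CPM with H16R, against 28.5 to 30 CPM with PBS, and rose by 0.65 (adjusted p = 1.85e-09) and with 3x by 0.64 (adjusted p = 1.04e-09). Stim1 was at 142, 144, 149 and 155 CPM with H16R and rose by 0.42 (adjusted p = 8.22e-10) and with 3x by 0.51 (adjusted p = 8.16e-12). Both genes were clear of every PBS and WT IL-2 library of the arm with either mutein. Ppp3cc was at 83.5, 82.2, 78.8 and 89.7 CPM with H16R against 57.4 to 61.4 CPM with PBS (0.50, adjusted p = 6.93e-08, and 0.41 with 3x, adjusted p = 9.49e-07). Nfatc1 was at 470, 432, 489 and 493 CPM with H16R (0.35, adjusted p = 2.2e-06, and 0.30 with 3x, adjusted p = 1.1e-05). Nfatc1 with 3x thus passed in this arm and not under the isotype, and that difference is tested below. Camk4 with H16R was at 0.19 (adjusted p = 0.0602) and its call was lost without MHC II block H16R replicate 2 (0.12) or MHC II block PBS replicate 4 (0.17). Ppp3cb was called with neither (-0.03 and 0.10, adjusted p = 0.726 and 0.15), although its 3x libraries (112, 110, 109 and 114 CPM) were all above PBS and the 3x value passed without both libraries high in B cell markers. The CD4 T cell marker sum moved with these comparisons, from 1700 to 1830 CPM with PBS to 2290 to 2610 CPM with H16R and 2060 to 2260 CPM with 3x. The myeloid sum moved from 24.4 to 39.8 CPM to 45.1 to 87.1 and 58.6 to 77.8 CPM. Their part in the results was not tested.

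Set against WT IL-2 within MHC II block mice, H16R differed in 7 members, 6 higher and 1 lower (57.5% of all tested genes called, 25.5% higher and 32% lower), and 3x was higher in 6 (68.7% called, 30% higher and 38.7% lower). With H16R, Nfatc1 and Orai1 were each higher by 0.41 (adjusted p = 8.91e-07 and 1.19e-05), Ppp3cc by 0.37 (adjusted p = 2.01e-05), Stim1 by 0.35 (adjusted p = 1.54e-07) and Nfatc3 by 0.16 (adjusted p = 0.014). With 3x, Stim1 was higher by 0.44 (adjusted p = 6.01e-10), Orai1 by 0.40 (adjusted p = 5.05e-06), Nfatc1 by 0.36 (adjusted p = 1.45e-06) and Ppp3cc by 0.28 (adjusted p = 0.000215). Ppp3ca, which set the muteins apart from WT IL-2 under the isotype, was called with neither here. Its difference was 0.00 for H16R (interval -0.10 to 0.10) and 0.08 for 3x (interval -0.02 to 0.17). The 3x value passed, at 0.11 or 0.12, without MHC II block WT IL-2 replicate 1 or MHC II block 3x replicate 3 or 4. Every 3x library of Ppp3ca (75 to 81.9 CPM) lay above every WT IL-2 library (70.4 to 74.8 CPM), while the H16R libraries (71.2 to 77.2 CPM) overlapped them. The counts without both libraries high in B cell markers were 6 and 7. The weakest calls were those of Nfatc2 (0.15, adjusted p = 0.0686) and Ppp3cb (-0.12, adjusted p = 0.0833) with H16R. The Nfatc2 call was lost in 5 of 8 fits that each left out 1 library of either group, and the Ppp3cb call in 4 of 8, with a difference of -0.05 without MHC II block WT IL-2 replicate 3. Marker sums also differed here. With WT IL-2, H16R and 3x in that order, plasma cell sums were 1710 to 3410, 687 to 1410 and 725 to 1550 CPM, Treg sums 2410 to 3390, 3740 to 4110 and 3980 to 4550 CPM, and CD4 T cell sums 1580 to 2070, 2290 to 2610 and 2060 to 2260 CPM. Their part in the results was not tested.

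The difference between the arms in the response to each molecule was tested as an interaction. For WT IL-2 the response of 6 members differed (19.7% of all tested genes called, 11.7% more positive and 7.98% more negative under blockade). It was smaller under blockade for Nfatc1 (-0.39, adjusted p = 0.000696), Orai1 (-0.35, adjusted p = 0.00825), Nfatc2 (-0.27, adjusted p = 0.0587) and Stim1 (-0.23, adjusted p = 0.00621). It was higher under blockade for Ppp3ca (0.35, adjusted p = 0.000892) and Ppp3cb (0.28, adjusted p = 0.0209). The Nfatc2 interaction was lost without isotype PBS replicate 1 (-0.22) or 2 (-0.23) or isotype WT IL-2 replicate 3b (-0.22). For H16R only Camk4 was called (-0.38, adjusted p = 0.0459, 19.1% of all tested genes called, 10.6% more positive and 8.47% more negative), and this was lost without isotype PBS replicate 1 (-0.29). That share of all genes was 12% without MHC II block H16R replicate 3 and 29% without isotype PBS replicate 4. For 3x, Nfatc1 (0.28, adjusted p = 0.00658), Ppp3cc (0.28, adjusted p = 0.0165) and Orai1 (0.27, adjusted p = 0.0238) responded more under blockade and Camk4 less (-0.44, adjusted p = 0.0092), with 39% of all tested genes called (20.3% more positive, 18.7% more negative). Nfatc1 and Orai1 therefore responded less to WT IL-2 and more to 3x under blockade. Leaving out both libraries high in B cell markers gave 5, 2 and 5 members for WT IL-2, H16R and 3x, with Nfatc2 lost for WT IL-2, Camk4 kept (-0.29, adjusted p = 0.0647) and Ppp3cb gained for H16R, and Ppp3cb gained for 3x. Orai1 with H16R had an interaction of 0.20 (interval 0.02 to 0.38, adjusted p = 0.151), which passed without isotype PBS replicate 4 (0.26) or MHC II block H16R replicate 2 (0.24). Ppp3cb passed without isotype PBS replicate 1 with H16R (0.23) and with 3x (0.20), and Nfatc2 without isotype PBS replicate 4 with H16R (-0.21) and with 3x (-0.27).

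Tregs and Tcons of the same 16 mice were then compared with mouse as a block. Over all injections 7 members differed, 6 higher and 1 lower in Tregs, where 75.9% of 12844 tested genes were called (38.2% higher, 37.7% lower). Camk4 was higher in Tregs of 16 of 16 mice, with a ratio of 1.01 to 1.95 (log2 difference 0.61, adjusted p = 6.04e-08). Ppp3cc was lower in Tregs of all 16, with a ratio of 0.644 to 0.952 (-0.26, adjusted p = 8.67e-06). Orai1 was higher in 14 mice (0.46, adjusted p = 5.01e-06), and Nfatc2 (0.39, adjusted p = 4.2e-05) and Nfatc1 (0.37, adjusted p = 0.00177) in 12 each. Ppp3ca (0.10, adjusted p = 0.0459, 10 mice) and Ppp3cb (0.07, adjusted p = 0.0738, 9 mice) were the smallest calls, lost in 3 and 8 of 16 fits that each left out a mouse. The Ppp3cb difference turned to -0.01 with scaling by total counts and to -0.02 with limma on FPKM, neither called, and was 0.06 and not called with DESeq2. Stim1 (-0.07, adjusted p = 0.242) and Nfatc3 (0.02, adjusted p = 0.733) did not pass. Without both libraries high in B cell markers 6 members were called, with Ppp3cb lost. Over all Treg and all Tcon libraries, NK cell marker sums were 10.6 to 59.7 and 69.4 to 203 CPM. Median B cell sums were 57.7 and 212 CPM, and median myeloid sums 39.2 and 140 CPM. The part of these sums in the results was not tested.

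In the 4 PBS mice alone, an alternative chosen after seeing the data and not rerun without a library, 4 members were called, with 50.4% of all tested genes (24.5% higher, 25.9% lower). Camk4 was higher in Tregs (0.29, adjusted p = 0.0157), and Stim1 (-0.35, adjusted p = 0.000437), Nfatc3 (-0.30, adjusted p = 0.00156) and Ppp3cc (-0.24, adjusted p = 0.0125) were lower. Nfatc1 was at -0.19 (adjusted p = 0.132) and Orai1 at 0.13 (adjusted p = 0.312). Stim1 in isotype PBS mice was at 131 and 132 CPM in Tcons, above all 4 Treg libraries. Tested as an interaction of molecule and cell type, with both arms together, 3 members had a more positive response in Tregs than in Tcons after WT IL-2, 6 after H16R and 7 after 3x, where 12.2%, 40.6% and 46.5% of all tested genes were called. The 12.2% for WT IL-2 depends on single mice. It was 1.92% without isotype WT IL-2 replicate 1, 4.36% and 7.18% without isotype PBS replicates 1 and 2, 6.77% without MHC II block PBS replicate 1, 4.49% without MHC II block WT IL-2 replicate 2, and 25.1% without isotype WT IL-2 replicate 2. Of all genes, 7.26%, 21.8% and 24.3% were more positive in Tregs and 4.94%, 18.8% and 22.2% more negative. Nfatc1 (0.66, 0.92 and 0.67), Nfatc2 (0.46, 0.64 and 0.60) and Nfatc3 (0.35, 0.50 and 0.46) were called with all 3 molecules, with adjusted p of 0.0226, 0.000481 and 0.00202 for Nfatc1. The difference for Nfatc1 was not a rise in Tregs alone, since its log2 fold changes in Tcons were -0.45, -0.63 and -0.50 (the last not called, adjusted p = 0.109). With both libraries high in B cell markers left out, the counts were 2, 6 and 7, and Nfatc3 was lost for WT IL-2 (0.33, adjusted p = 0.107). The WT IL-2 call of Nfatc3 was lost without any of 3 mice, isotype PBS replicate 1 (0.31), isotype WT IL-2 replicate 1 (0.29) and MHC II block WT IL-2 replicate 2 (0.30). Stim1 (0.46 and 0.40), Orai1 (0.48 and 0.45) and Camk4 (0.47 and 0.44) were called with both muteins, and Ppp3ca (0.33, adjusted p = 0.00526) with 3x. The sum of 5 Treg markers ranged over 332 to 1420 CPM in Tcon libraries, highest in isotype WT IL-2 replicate 2. Without that mouse, Camk4 (0.46) and Stim1 (0.28) also passed with WT IL-2, and its part in the results was not otherwise tested. The WT IL-2 value of Stim1 also passed without isotype 3x replicate 2 or without either MHC II block 3x mouse.

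**Figure D4:**
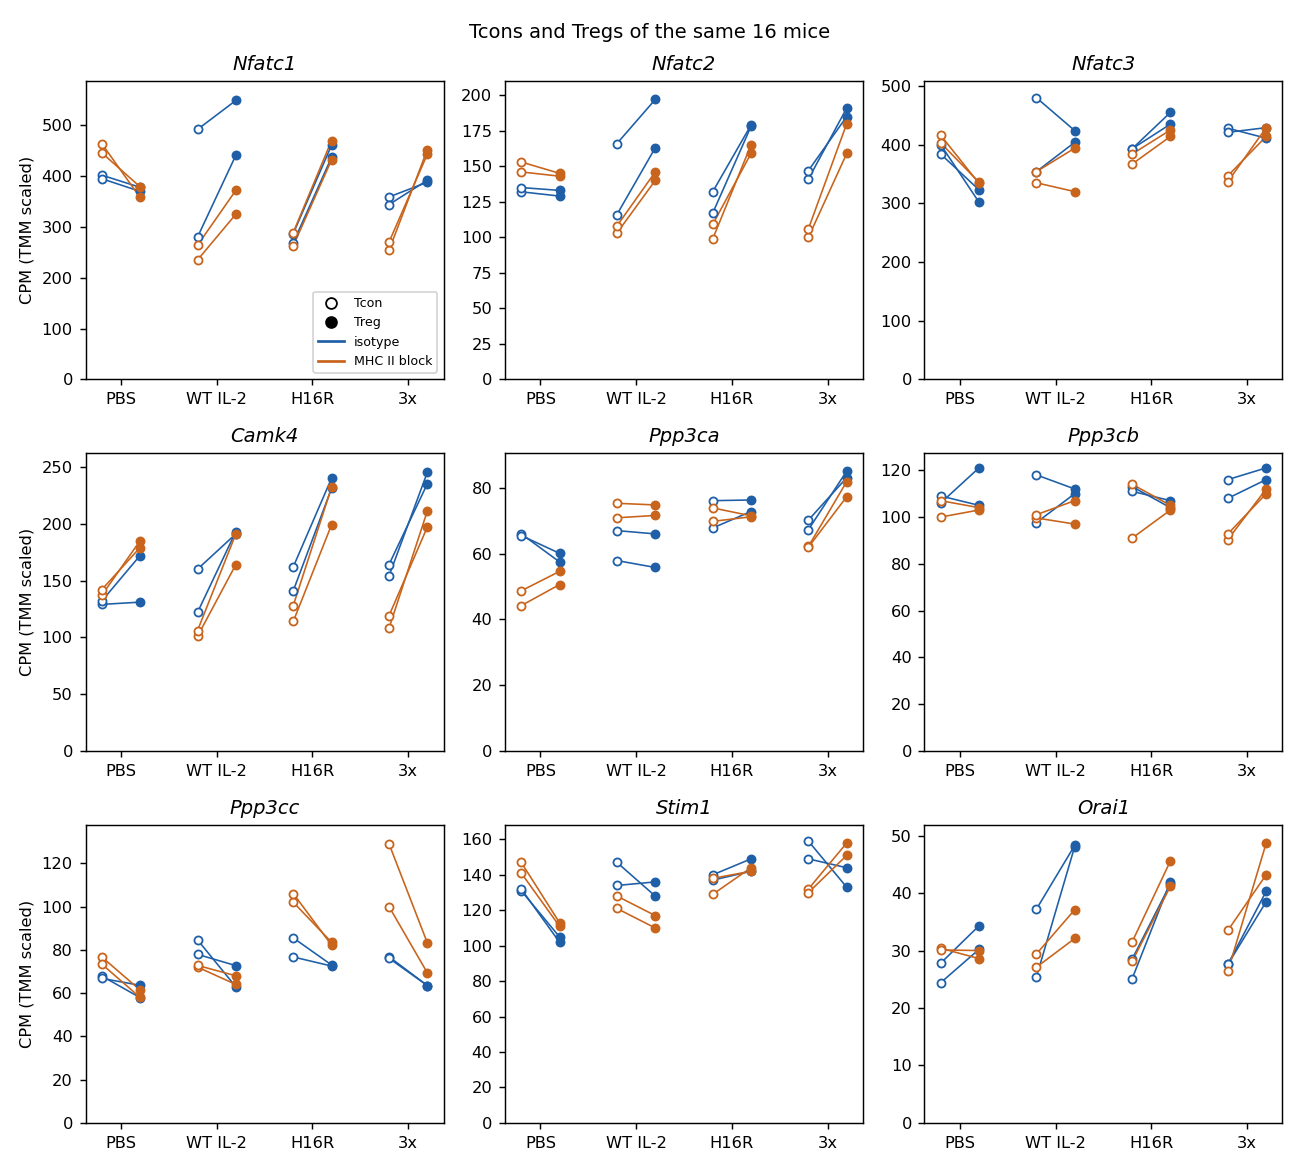
CPM of each gene in the Treg and Tcon library of each of the 16 mice with both, open for Tcons and filled for Tregs, with a line joining the libraries of a mouse, mice grouped by injection and colours for the antibody. Camk4 was higher in the Treg library of all 16 mice and Ppp3cc lower in all 16, and the Nfatc1 value of Tcons in isotype WT IL-2 replicate 2 (492 CPM) stood above the other Tcon library of its group (280 CPM).

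In Tcons each group held 2 libraries, and the arms were fitted together. Nfatc1 was at 402 and 395 CPM in isotype PBS Tcons and 464 and 446 CPM with blockade, and in H16R Tcons at 287 and 269 CPM and 289 and 263 CPM. It fell by 0.63 with H16R (adjusted p = 0.0221), opposite to its rise in Tregs. The sum of 8 B cell markers moved with the Tcon comparisons under the isotype, from 843 to 979 CPM with PBS to 189 to 306 with WT IL-2, 135 to 184 with H16R and 327 to 430 CPM with 3x. Under blockade it was 120 to 129, 236 to 296, 132 to 250 and 106 to 141 CPM in that order. Its part in the results was not tested. With WT IL-2, Nfatc1 was at 280 and 492 CPM under the isotype and 235 and 264 CPM under blockade (-0.45, adjusted p = 0.0819). That fall rests on which library is kept: the call was lost without isotype WT IL-2 replicate 1 (-0.38), without either MHC II block WT IL-2 library (-0.37 and -0.40) or without either MHC II block PBS library (-0.37 and -0.40). Without isotype WT IL-2 replicate 2, the Tcon library with the most Treg marker RNA, 5 members passed, among them Nfatc2 (-0.35), Camk4 (-0.28) and Nfatc3 (-0.19). Counts with all libraries were 2 with WT IL-2, 1 higher and 1 lower (27.2% of 12526 tested genes called, 14.8% higher and 12.4% lower). H16R gave 4, 2 higher and 2 lower (31.1% called, 16.2% higher and 14.9% lower), and 3x 1 higher (9.88% called, 4.71% higher and 5.17% lower). With 1 Tcon library left out, these shares of all genes reached 14% (WT IL-2, without MHC II block PBS replicate 1), 17.9% (H16R, without isotype H16R replicate 1) and 4.1% (3x, without MHC II block 3x replicate 2) at the lowest, and 43.2% for WT IL-2 and 17.7% for 3x without isotype WT IL-2 replicate 2. The others were Ppp3ca with WT IL-2 (0.28, adjusted p = 0.0952) and H16R (0.37, adjusted p = 0.0363), Ppp3cc with H16R (0.37, adjusted p = 0.0488) and 3x (0.41, adjusted p = 0.0743), and Nfatc2 with H16R (-0.32, adjusted p = 0.0813). The arms differed for Ppp3ca, whose PBS level was lower under blockade. Its means with PBS, WT IL-2 and H16R were 65.8, 62.4 and 72 CPM under the isotype and 46.5, 73.1 and 71.9 CPM under blockade. Of 16 fits that each left out 1 Tcon library, the Ppp3ca call with WT IL-2 was lost in 12, the Nfatc2 call with H16R in 6 and the Ppp3cc call with 3x in 6.

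Among Tcons, Ppp3cc was highest in blocked mice given muteins. It was at 102 and 106 CPM with H16R and 129 and 100 CPM with 3x, against 76.7 and 73.4 CPM with PBS under blockade and at most 85.5 CPM in any other Tcon library. Without MHC II block 3x replicate 1, at 129 CPM, the Ppp3cc value with 3x was 0.26 and did not pass. In blocked Tcons the myeloid marker sum was 52.3 to 52.8 CPM with PBS, 195 to 208 CPM with H16R and 260 to 271 CPM with 3x, and the dendritic sum 22.8 to 25.5, 48.7 to 54.3 and 60.9 to 67.6 CPM. Both sums were highest with WT IL-2 (656 to 773 and 68.4 to 86.9 CPM), where Ppp3cc was at 72 and 72.8 CPM. Their part in the Ppp3cc values was not tested. Blockade against the isotype, with the injections fitted together, lowered Camk4 (-0.29, adjusted p = 0.0324), Nfatc2 (-0.25, adjusted p = 0.0691) and Ppp3cb (-0.14, adjusted p = 0.0693) in Tcons and raised Ppp3cc (0.23, adjusted p = 0.078), with 28.9% of all tested genes called (13.8% higher, 15.1% lower), or 17% to 17.6% without any 1 of the 4 Tcon libraries given 3x. The calls of Nfatc2, Ppp3cb and Ppp3cc were lost in 8, 6 and 9 of 16 fits that each left out 1 library, that of Camk4 in 0. In PBS Tcons alone, Camk4 was at 129 and 132 CPM under the isotype and 137 and 142 CPM under blockade, so the lower values came from the mice given a molecule.

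Other genes of the route were counted from lists drawn from textbook knowledge. Of 20 tested genes of store-operated entry and calcium handling, 11 rose and 2 fell with WT IL-2, 15 and 2 with H16R, and 13 and 2 with 3x under the isotype, that is 65%, 85% and 75% of the list against 52.2%, 64.2% and 63.6% of all genes. The list's median log2 fold changes were 0.16, 0.30 and 0.21. Under blockade 4 rose and 2 fell with WT IL-2 (30% of the list against 35.6% of all genes), 9 and 3 with H16R (60% against 66.5%), and 9 and 7 with 3x (80% against 73%), with medians of 0.04, 0.04 and 0.07. Under the isotype, Trpm4, a calcium-activated cation channel, rose by 0.66, 0.73 and 0.49 (adjusted p = 5.24e-10, 2.42e-11 and 5.34e-08). Trpv2, another cation channel, rose there by 0.63, 0.79 and 0.69 (adjusted p = 3.94e-12, 1.43e-14 and 2.08e-13). In the isotype arm, the channel paralogs Orai2 (0.15, 0.28 and 0.23) and Orai3 (0.47, 0.62 and 0.43) passed with all 3 molecules. The sensor paralog Stim2 passed there with the muteins only (0.14 and 0.16, adjusted p = 0.0194 and 0.0125, against 0.03, adjusted p = 0.716, with WT IL-2). Itpr1, the receptor that releases stored calcium, fell under the isotype by 0.22, 0.41 and 0.49 (adjusted p = 0.0269, 8.89e-05 and 1.06e-05).

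For the next lists, values are those of the isotype arm unless blockade is named. Of 14 tested calmodulin genes, calcineurin subunits and regulators, 5 rose and 1 fell with WT IL-2, 5 and 3 with H16R, and 7 and 2 with 3x (42.9%, 57.1% and 64.3% of the list against 52.2%, 64.2% and 63.6% of all genes). The calmodulin gene Calm3 rose with each molecule (0.23, 0.28 and 0.32), whereas Calm2, another calmodulin gene, did not pass (-0.08, -0.09 and 0.06). The calcineurin inhibitor Rcan1, itself a known calcineurin target, fell by 0.48 with H16R and with 3x (adjusted p = 9.97e-05 and 8.41e-05) and was at -0.18 with WT IL-2 (adjusted p = 0.112). Of 11 calmodulin-dependent kinases and related genes, 5 rose and 2 fell with WT IL-2, 5 and 1 with H16R, and 5 and 0 with 3x (63.6%, 54.5% and 45.5% of the list, so below the share of all genes with both muteins). Camk2b, a subunit of CaMKII, rose most, by 1.29, 1.40 and 1.15 (adjusted p = 9.16e-14, 7.81e-15 and 3.03e-13), from 28.4 ± 2.99 CPM (SD, n = 4) with PBS to 69.1, 74.8 and 62.4 CPM. Crem, a CREB family factor, rose by 0.73, 0.58 and 0.39 (adjusted p = 2.68e-05, 0.000272 and 0.00942) and fell by 0.76 under blockade with WT IL-2 (adjusted p = 3.56e-05). Of 11 tested genes for another NFAT factor and NFAT kinases, 2 rose and 2 fell with WT IL-2 (36.4% of the list) and 4 and 3 with each mutein (63.6%), shares at or below those of all genes. Gsk3b, a kinase that exports NFAT, rose by 0.16, 0.29 and 0.40 (adjusted p = 0.027, 0.000155 and 1.71e-06), and Nfat5 did not pass (-0.19, -0.22 and -0.15, adjusted p = 0.389, 0.275 and 0.461). Under blockade 35.7%, 78.6% and 85.7% of the calmodulin list were called with WT IL-2, H16R and 3x, against 35.6%, 66.5% and 73% of all genes. For the kinase list it was 45.5%, 63.6% and 81.8%, and for the list of NFAT factor and kinases 9.09%, 63.6% and 63.6%.

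Genes known to respond to calcineurin and NFAT moved in both directions. Of 22 tested under the isotype, 9 rose and 2 fell with WT IL-2, 8 and 9 with H16R, and 7 and 11 with 3x (list medians 0.10, -0.05 and -0.22). These were 50%, 77.3% and 81.8% of the list against 52.2%, 64.2% and 63.6% of all genes. Within blocked mice, 5 rose and 2 fell with WT IL-2, 12 and 8 with H16R, and 10 and 8 with 3x (31.8%, 90.9% and 81.8% against 35.6%, 66.5% and 73%). Set against the isotype, blockade gave 2 that rose and 7 that fell in PBS mice (40.9% of the list against 14.1% of all genes) and 3 and 14 in WT IL-2 mice (77.3% against 33.6%). With H16R it gave 8 and 5 (59.1% against 30.7%), and with 3x 10 and 6 (72.7% against 54.1%). Nr4a1, an immediate response gene of the T cell receptor, was at 1100 ± 189 CPM (SD, n = 4) in isotype PBS Tregs and 657 ± 34 CPM under blockade (-0.75, adjusted p = 4.78e-05) and was called with no molecule under the isotype (-0.04, -0.09 and -0.16). Nr4a3, of the same family, fell by 1.14 under blockade with PBS (adjusted p = 1.52e-05) and by 0.75 and 0.74 with H16R and 3x under the isotype (adjusted p = 0.000102 and 0.00012). Under the isotype, Havcr2, which encodes the inhibitory receptor TIM-3, rose by 2.03, 2.15 and 2.08 with WT IL-2, H16R and 3x (adjusted p = 1.22e-09, 1.39e-10 and 3.28e-10). The chemokine gene Xcl1 fell there by 0.67, 1.64 and 1.33 (adjusted p = 0.00515, 5.41e-08 and 1.31e-06). Tnf rose by 0.97 under blockade with PBS (adjusted p = 1.94e-07).

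Across the 32 Treg libraries, which share groups and depth, the members' log2 CPM were described by Pearson's r. Stim1 went with Nfatc3 (0.86), Orai1 (0.84) and Ppp3cc (0.81), and Nfatc1 with Orai1 (0.81). Nfatc1 was nearly unrelated to Camk4 and Ppp3ca (0.17 with each), and Ppp3cb lay between -0.35 and 0.22 with the other 8. The tested genes most like Stim1 were Rps6ka1 (0.978), Capn2 (0.974) and Nipal3 (0.973), and those most like Orai1 were Scly (0.967), Tigit (0.961) and Capg (0.959). For Nfatc1 they were Hdac7 (0.91), N4bp1 (0.898) and Batf (0.89), for Nfatc2 Gsk3b (0.897), Asxl1 (0.896) and Ubn1 (0.88), and for Nfatc3 Virma (0.957), Wdr26 (0.955) and Ccng1 (0.942). For Camk4 they were Atp11b (0.939), Arid4b (0.929) and Mbnl1 (0.915). For Ppp3ca they were Myadm (0.946) and Atp2a3 (0.935), for Ppp3cb Suz12 (0.928), Lysmd3 (0.899) and Eif4g2 (0.897), and for Ppp3cc Csf1 (0.915), Flii (0.907) and Atp6v1e1 (0.902). Atp2a3, which encodes the pump that refills the endoplasmic reticulum with calcium, was the only one of these that belongs to the calcium handling list.

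**Figure D5:**
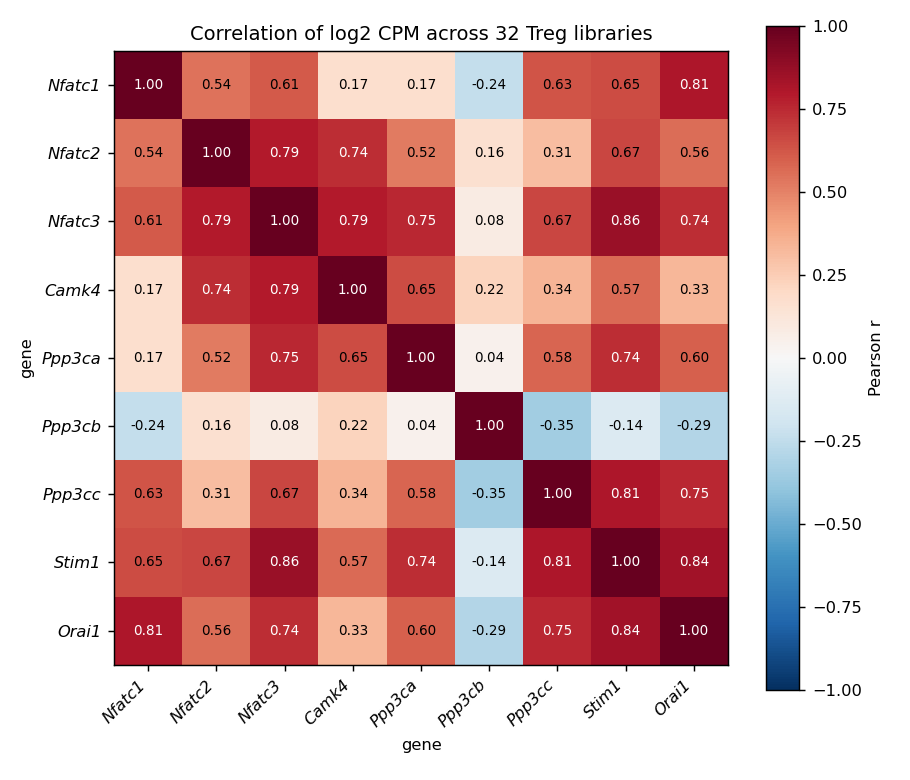
Pearson's r of log2 CPM between each pair of the 9 genes over the 32 Treg libraries, with r printed in each cell. Stim1, Orai1, Nfatc3 and Ppp3cc form high pairs (Stim1 and Nfatc3 at 0.86), and the Ppp3cb row runs from -0.35 to 0.22.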

How the data were processed

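RNA of Tregs (32 libraries) and Tcons (16 libraries) had been sequenced as stranded mRNA libraries. Reads were aligned by the authors with OSA in Omicsoft Array Suite to mouse B38 (GRCm38) with the gene model they name as GENCODE v19, and the authors deposited expected counts from RSEM and FPKM for 53345 genes in 48 libraries, and 3 tables of their own comparisons (fold changes and p-values from DESeq2), which were not used. Expected counts were rounded and scaled by TMM. Protein-coding genes above 0.5 CPM in at least 4 libraries were tested with edgeR 4.0.16 (quasi-likelihood test, R 4.3.3), with Benjamini-Hochberg adjustment over all tested genes and a threshold of 0.1. Tregs were fitted as 1 model of 8 groups of 4, Tregs against Tcons with mouse as a block, and Tcons with antibody and molecule as terms. Scripts were tested on simulated data. Intervals are 2 SE in each direction. Each library was taken as 1 mouse, although 2 Treg libraries of isotype WT IL-2 carry 1 mouse number. Same-numbered mice of different groups were checked for shared deviations (105 pairs, r from -0.48 to 0.66, median 0.02). The check showed no sign of pairing but cannot exclude it, so no pairing across groups was assumed. Alternatives were limma 3.58.1 on log2(FPKM + 1), DESeq2 1.42.0, other scalings, filters and thresholds, and leaving out libraries. The 9 genes and the gene lists were chosen with earlier results of these data known. All 9 genes, and from each list the genes with the largest rise and fall past the threshold for each molecule and for blockade with PBS, were named, besides a fixed set of subunits, paralogs and markers. A few genes that this rule names are not reported here.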

Additional observations from a re-analysis of the deposited data

Results flagged for a closer look

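Of 72 groups of 4 Treg libraries and genes, 4 held a library far from the other 3 by Dixon's criterion, which by chance flags about 1 in 20. They were Orai1 in isotype WT IL-2 replicate 3b (43.8 CPM, others 48.1 to 48.8), Ppp3ca in MHC II block PBS replicate 1 (54.6 CPM, others 50.6 to 51.1), Ppp3ca in MHC II block H16R replicate 3 (77.2 CPM, others 71.2 to 71.8) and Ppp3cc in isotype 3x replicate 4 (68.4 CPM, others 63.3 to 63.5).

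A test of the difference itself found that 11 responses differed between the antibody arms, 6 for WT IL-2, 1 for H16R and 4 for 3x, where 19.7%, 19.1% and 39% of all tested genes were called. For WT IL-2 these were Nfatc1 (-0.39), Nfatc2 (-0.27), Ppp3ca (0.35), Ppp3cb (0.28), Stim1 (-0.23) and Orai1 (-0.35) on the log2 scale, where a negative value means a smaller response under MHC II blockade. For H16R it was Camk4 (-0.38), and for 3x Nfatc1 (0.28), Camk4 (-0.44), Ppp3cc (0.28) and Orai1 (0.27). The call of Nfatc2 for WT IL-2 was lost without isotype PBS replicate 1 or 2 or isotype WT IL-2 replicate 3b, and that of Camk4 for H16R without isotype PBS replicate 1. Another 16 responses differed between Tregs and Tcons, all more positive in Tregs, 3, 6 and 7 for WT IL-2, H16R and 3x, where 12.2%, 40.6% and 46.5% of all tested genes were called. For WT IL-2 these were Nfatc1 (0.66), Nfatc2 (0.46) and Nfatc3 (0.35), the last lost without isotype PBS replicate 1, isotype WT IL-2 replicate 1 or MHC II block WT IL-2 replicate 2. For H16R they were Nfatc1 (0.92), Nfatc2 (0.64), Nfatc3 (0.50), Camk4 (0.47), Stim1 (0.46) and Orai1 (0.48). For 3x they were Nfatc1 (0.67), Nfatc2 (0.60), Nfatc3 (0.46), Camk4 (0.44), Ppp3ca (0.33), Stim1 (0.40) and Orai1 (0.45).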

How the results depend on the processing

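Of 2178 values recomputed under other settings, 1926 kept their direction and call, 204 lost a call, 42 gained one and 6 reversed. Of 2592 values with 1 library or mouse left out, 2443 kept direction and call, 107 lost a call, 42 gained one and 0 reversed. A floor of 1 on the absolute log2 fold change left 0 of the 9 genes called in every comparison. For MHC II blockade against the isotype in PBS Tregs the count of 2 became 1 at a threshold of 0.05, with total counts only, with limma on FPKM, without a filter on low counts, with the replicate block, and without isotype PBS replicate 1 and MHC II block WT IL-2 replicate 1 together, and 0 with only the compared groups (edgeR, 2 at an unadjusted p under 0.05). With H16R that contrast went from 1 to 2 with total counts, limma, only the compared groups, and without those libraries together, which also gave 2 for the interaction of H16R and blockade and 5 for WT IL-2 against PBS under blockade. H16R against WT IL-2 under the isotype went from 5 to 3 with the replicate block, and of the paired comparisons dropping the mouse block lost no call. In Tcons, WT IL-2 gave 1 with total counts, limma, no filter, the replicate block or DESeq2 size factors and 0 at 0.05 or in the isotype arm alone (2 and 1 at an unadjusted p under 0.05), H16R 1 in the isotype arm alone, 3x 2 with DESeq2 and 0 at 0.05 or in the isotype arm alone (2 unadjusted in both), and blockade 1 at 0.05. Reversed values were Ppp3cb in Tregs against Tcons (-0.01 with total counts, -0.02 with limma), Ppp3ca in Tcons with WT IL-2 (-0.07, isotype arm alone), and Nfatc1 (0.17), Nfatc2 (0.15) and Camk4 (0.08) for blockade in PBS Tcons alone. The cause was not tested. With 1 library left out, counts ranged over 1 to 3 (blockade, PBS Tregs), 0 to 2 (blockade, H16R Tregs, 1 unadjusted at the lowest), 3 to 5 (WT IL-2 under blockade), 1 to 3 (interaction of H16R and blockade), 2 to 5 (interaction of WT IL-2 and cell type), and in Tcons 0 to 5 (WT IL-2), 1 to 4 (H16R), 0 to 2 (3x) and 1 to 5 (blockade). Where this left 1 Tcon library in a group, it was taken to vary like the others. The number of all genes called moved as well in the Treg fits. It ranged over 1106 to 1987 (blockade, PBS Tregs), 2496 to 4481 (blockade, H16R Tregs), 3671 to 4113 (WT IL-2 under blockade) and 1488 to 3593 (interaction of H16R and blockade). Scaling by total counts or limma on FPKM moved the share of higher calls among all called genes by over 10 points in 11 comparisons, of which the largest were WT IL-2 against PBS under blockade (61.5%, 44% by total counts, 41.5% by limma), blockade in PBS Tregs (42.5%, 56.2%, 60.1%), H16R against WT IL-2 under the isotype (47.6%, 30%, 32.6%) and the interactions of WT IL-2 (59.5%, 42.4%, 40.7%) and H16R (53.7%, 35.7%, 37%) with cell type. The others were blockade with H16R (50.4%, 65.8%, 65.3%), Tregs against Tcons (50.3%, 38.3%, 38.6%), the interaction of 3x and cell type (52.3%, 40%, 40.9%), H16R against PBS under the isotype (48.8%, 38.4% by total counts), blockade with 3x (50.2%, 60.4% by total counts) and the interaction of WT IL-2 and blockade (59.4%, 49.2% by limma). Same-numbered libraries showed no sign of pairing: 7 of 32 correlated best with their own number.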

Other observations

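The remaining marker sums in Treg and Tcon libraries were 6.45 to 45.1 and 6.76 to 73.1 CPM for CD8 T cells, 3.79 to 40.1 and 21.7 to 86.9 CPM for dendritic cells, 10.6 to 59.7 and 69.4 to 203 CPM for NK cells, and 0.357 to 44.2 and 3.36 to 202 CPM for erythroid cells and platelets. B cell sums in Tcons were 106 to 979 CPM and myeloid sums 52.3 to 773 CPM, and plasma cell sums were 178 to 3410 CPM in Tregs and 392 to 2870 CPM in Tcons. In no library were more than 2 markers of a list at 0. Lrrk2, a kinase of the list of NFAT kinases that B cells and myeloid cells express, was at 5.34 to 36.5 CPM in isotype PBS Tregs (14.6 ± 14.7, SD, n = 4), 2.92 to 4.02 CPM with WT IL-2, 1.15 to 2.01 with H16R and 1.41 to 2.23 CPM with 3x, and at 4.22 to 35.4 CPM under blockade with WT IL-2. The SD with PBS was as large as the mean, and the Treg groups with the widest spread were those that hold the 2 Treg libraries highest in B cell markers.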
